A study of Homo sapiens with 10 samples.

Results

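The 9024 sites described here carried a listed ZEB1 peak in untreated cells and after 24 h of eribulin, and no listed peak after 48 or 72 h. They were chosen by the measured peaks themselves, from 52981 consensus intervals of the genome, where 1 base shared with an entry of a deposited peak list counted as a peak. They are called early-listed sites from here on. They make up 17.0% of all intervals and 32.4% of the 27826 intervals with a peak in both untreated and 24 h cells. Of the other intervals in that group, 12793 had a peak in all 4 lists, 4318 also at 48 h only and 1691 also at 72 h only. Because the peak lists chose these sites, every comparison of their level between untreated, 24 h, 48 h and 72 h libraries is a description and no test of a difference is drawn from it.

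The cells were a human breast cancer line without estrogen, progesterone and HER2 receptors, labelled MDA_Parental when untreated and MDA_ERI when treated with 300 nM eribulin. ZEB1 was mapped by CUT&RUN, in which an antibody brings a nuclease to the places a protein occupies and the freed DNA fragments are sequenced. Each of the 4 conditions had 2 ZEB1 libraries, and the 2 IgG libraries of the series were not analysed here. The labels give no time in culture for the untreated cells, so exposure and time cannot be told apart, and no expression was measured, so the labelled cell type could not be checked by its markers.

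ZEB1 is a zinc finger transcription factor that binds E-box motifs and represses epithelial genes, among them the cadherin CDH1 and the miR-200 microRNAs, which in turn target ZEB1. It is best known as a driver of the epithelial to mesenchymal transition, in which carcinoma cells lose their junctions and become motile. Eribulin binds the ends of microtubules, stops their growth and blocks mitosis, and is given to patients with advanced breast cancer.

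Sequences were looked up where an early-listed site lay over a promoter window of the RefSeq table (GRCh38.p14, from 250 bases before to 50 after a start). There were 1669 such sites among the 8615 on chromosomes that the table covers (19.4%), against 18.4% of all intervals and 34.3% of the sites in all 4 lists. The first 3 promoters below hold the ZEB1 E-box, CACCTG on 1 strand and CAGGTG on the other, which is set in capitals. They belong to LGALS3BP, a secreted galectin-binding glycoprotein (chr17:78979874-78980173, minus strand), DNAJC4, a J-domain protein (chr11:64230298-64230597, plus strand), and ZBTB7B, a zinc finger transcription factor (chr1:155002399-155002698, plus strand). The other 3 hold no such hexamer and belong to DUSP1, a phosphatase that switches off MAP kinases (chr5:172771146-172771445, minus strand), HES1, a repressor induced by Notch (chr3:194135898-194136197, plus strand), and TANK, an adaptor of innate immune signalling (chr2:161136713-161137012, plus strand). They are shown because the share of promoters with this hexamer differed with the change at 24 h, as described further on. LGALS3BP, DNAJC4 and ZBTB7B were chosen after their values had been seen: of the 6 hexamer-bearing promoters with the most signal in untreated cells, they are the 3 with the lowest log2 fold change at 24 h (-1.49, -1.01 and -0.77). The other 3, NRBP1, FOXP4 and DLGAP4, had -0.26, -0.03 and 0.33, and over all hexamer-bearing early-listed promoters the median was 0.20, with 64.2% higher at 24 h than untreated. A site may cover only part of its promoter window. At ZBTB7B the site covered 106 of the 300 bases, and both hexamers lay outside it.
LGALS3BP: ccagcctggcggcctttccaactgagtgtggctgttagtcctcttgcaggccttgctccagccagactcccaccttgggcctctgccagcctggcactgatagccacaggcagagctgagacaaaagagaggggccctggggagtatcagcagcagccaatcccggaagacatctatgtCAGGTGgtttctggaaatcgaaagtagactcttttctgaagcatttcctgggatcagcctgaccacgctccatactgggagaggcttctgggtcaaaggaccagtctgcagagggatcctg
DNAJC4: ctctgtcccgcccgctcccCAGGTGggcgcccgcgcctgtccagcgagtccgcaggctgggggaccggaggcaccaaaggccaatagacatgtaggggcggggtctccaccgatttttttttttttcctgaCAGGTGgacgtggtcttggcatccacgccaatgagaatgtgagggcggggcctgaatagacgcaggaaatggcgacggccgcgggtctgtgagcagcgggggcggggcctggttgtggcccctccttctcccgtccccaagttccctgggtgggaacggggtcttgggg
ZBTB7B: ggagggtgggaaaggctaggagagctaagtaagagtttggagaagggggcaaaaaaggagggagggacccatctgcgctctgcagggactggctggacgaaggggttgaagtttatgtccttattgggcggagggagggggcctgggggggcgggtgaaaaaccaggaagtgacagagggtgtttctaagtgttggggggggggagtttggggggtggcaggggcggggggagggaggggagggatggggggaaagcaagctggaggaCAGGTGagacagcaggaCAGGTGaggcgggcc
DUSP1: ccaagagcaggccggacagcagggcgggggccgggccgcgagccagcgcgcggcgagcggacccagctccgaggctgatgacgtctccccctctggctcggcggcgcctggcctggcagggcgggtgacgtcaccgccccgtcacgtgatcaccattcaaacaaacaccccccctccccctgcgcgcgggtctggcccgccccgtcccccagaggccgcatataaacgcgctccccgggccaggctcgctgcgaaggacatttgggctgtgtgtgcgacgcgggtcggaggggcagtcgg
HES1: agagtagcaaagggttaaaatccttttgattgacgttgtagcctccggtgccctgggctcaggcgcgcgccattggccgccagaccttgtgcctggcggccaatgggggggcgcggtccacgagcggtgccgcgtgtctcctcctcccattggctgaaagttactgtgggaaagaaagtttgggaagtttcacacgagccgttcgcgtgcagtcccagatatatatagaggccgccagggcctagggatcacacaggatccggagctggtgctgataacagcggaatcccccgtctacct
TANK: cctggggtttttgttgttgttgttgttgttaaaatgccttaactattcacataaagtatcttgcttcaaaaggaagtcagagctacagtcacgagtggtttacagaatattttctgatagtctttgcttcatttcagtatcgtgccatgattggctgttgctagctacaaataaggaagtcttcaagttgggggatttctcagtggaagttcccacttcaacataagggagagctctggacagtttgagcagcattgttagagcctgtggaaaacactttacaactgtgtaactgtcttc

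Levels are given as CPM, counts scaled to library size, with TMM scaling, which sets the libraries to a common level over the tested sites. The LGALS3BP promoter site had 31.9 and 28.7 CPM in the untreated libraries, 10.3 and 11.3 after 24 h, 18.5 and 20.4 after 48 h, and 20.8 and 19.4 after 72 h. Its 24 h libraries were the lowest, and both later times lay between them and untreated cells. The DNAJC4 site went from 36.2 and 42.9 CPM to 20.01 and 18.9 after 24 h, then 34.0 and 30.2 after 48 h and 20.8 and 37.9 after 72 h. ZBTB7B had 37.4 and 40.9 CPM untreated, 21.0 and 24.8 after 24 h, 23.9 and 34.7 after 48 h, and 38.9 and 19.4 after 72 h. At both genes the 24 h libraries lay below the untreated ones, and at ZBTB7B the 72 h libraries straddled the untreated and the 24 h level. The DUSP1 site had 62.6 and 61.3 CPM untreated, 23.1 and 19.9 after 24 h, 17.8 and 22.7 after 48 h, and 19.0 and 24.1 after 72 h, so that it was already low at 24 h and stayed there. HES1 differed little between conditions, with 29.8 and 26.7 CPM untreated, 29.2 and 32.3 after 24 h, 20.1 and 28.7 after 48 h, and 20.8 and 24.1 after 72 h. TANK, with 5.79 and 5.61 CPM untreated, had 13.9 and 12.4 after 24 h, 1.54 and 1.51 after 48 h, and 5.19 and 3.70 after 72 h, and was the only 1 of the 6 highest at 24 h in both libraries and lowest at 48 h in both.

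Across all 9024 sites the median level was 10.1 and 10.1 CPM in the untreated libraries, 12.8 and 12.9 after 24 h, 9.27 and 9.06 after 48 h, and 9.52 and 9.26 after 72 h. The sites were thus weak throughout: sites in all 4 lists had medians between 32.3 and 34.7 CPM in the same libraries. Per kilobase of interval the early-listed sites had a median of 42.6 CPM in untreated cells and 55.6 after 24 h, against 81.1 and 78.8 for sites in all 4 lists. Their median width was 227 bp, against 431 bp. Since the intervals are the union of the peaks, width follows from the lists too. The median pooled count per site was 65 in untreated cells, 49 after 24 h, 24 after 48 h and 21 after 72 h, and 1 site had no count at 48 h and 1 after 72 h. Total counts in all intervals ran from 3146228 to 3561455 in the untreated libraries, 1799143 to 1886419 after 24 h, 1346179 to 1380070 after 48 h and 1130706 to 1207987 after 72 h. The 2 libraries of a condition differed over these sites by no more than sampling noise, with a chi-square per degree of freedom between 0.753 and 1.10, where sampling alone gives about 1. They are therefore counted as 1 sample per condition, and calls between conditions compare these libraries only.

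**Figure D1:**
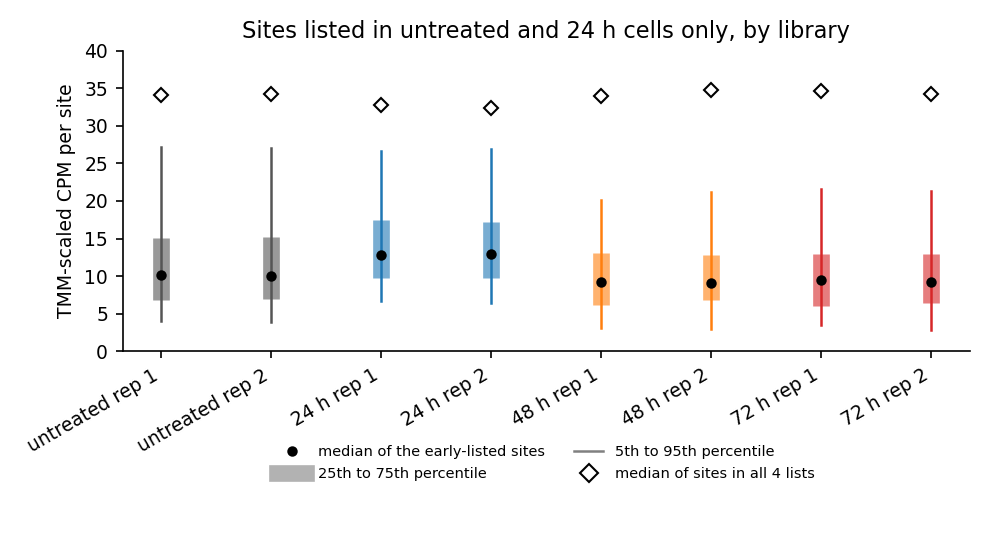
Level of the 9024 early-listed sites in each of the 8 ZEB1 libraries, in TMM-scaled CPM per site, with the median (dot), the middle 50% (thick bar) and the 5th to 95th percentile (line), and the median of sites in all 4 lists (diamond). The medians of the early-listed sites lie between 9.06 and 12.9 CPM, highest in the 24 h libraries, and below the diamonds in each library.

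The label under which these sites were gathered, kept at 24 h and lost later, describes the peak lists and only in part the counts. On the TMM scale, 6368 of the 9024 sites (70.6%) were higher at 24 h than untreated, and 5376 (59.6%) had their highest level of the 4 conditions at 24 h. At 48 and 72 h both levels lay below 24 h in 6624 sites (73.4%), but below untreated in only 4220 (46.8%), and both were at or above untreated in 2505 (27.8%). Their summed signal was 118% of untreated at 24 h, 85.4% after 48 h and 86.5% after 72 h. Without a listed peak at 48 and 72 h, the sites therefore still held counts there, at pooled medians of 9.16 and 9.39 CPM against 10.0 untreated. Single sites were not all near their untreated level. The decile with the lowest untreated level was higher at both later times and the highest decile lower, as given further on.

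The picture on a scale set by the background of the peak caller was different. That background, called the background floor, was the most frequent expected pileup solved from the fold and p columns of the peak lists. Between 1.91% and 4.88% of the solved peaks of a condition lay at it. It was 108%, 101% and 95.2% of the untreated one at 24, 48 and 72 h, while the counts in sites were lower at each later time. The list entries come from replicate 1, and replicate 2 was scaled by its counts in sites. On this scale the summed signal of the early-listed sites was 61.8% of untreated at 24 h, 31.8% after 48 h and 30.5% after 72 h. Only 1826 sites (20.2%) were then higher at 24 h than untreated, both later levels were below untreated in 8973 (99.4%), and 3902 (43.2%) were lower at every step. The sites in all 4 lists had 47.4%, 38.5% and 36.9% on the same scale, and so were below the early-listed sites at 24 h and above them at 48 and 72 h. The direction at 24 h against untreated depends on this choice. A change of scale multiplies all sites of a condition by 1 factor, so it cannot alter the order of the site groups, which also rests on the peaks that chose them.

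**Figure D2:**
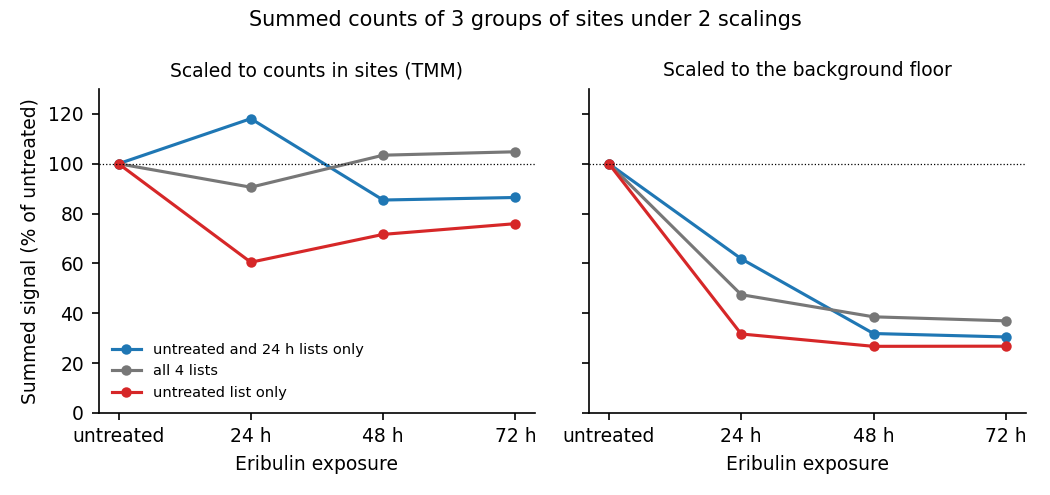
Summed counts of the early-listed sites, the sites in all 4 lists and the sites in the untreated list only, as % of the untreated sum, with TMM scaling (left) and scaled to the background floor of the peak caller (right). With TMM the early-listed sites go from 100% to 118%, 85.4% and 86.5%, and on the background scale to 61.8%, 31.8% and 30.5%.

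Of the 9024 sites, 8881 passed the filter on low counts and 143 did not. At 24 h against untreated, edgeR called 3211 of the 8881 higher (36.2%) and 916 lower (10.3%), where 28.0% and 26.8% of all 46436 tested sites were called. The lists that chose the sites rest on the same libraries, so nothing is read from these shares. At 48 h against 24 h, 2272 were called lower (25.6%, 14.3% of all tested sites) and 53 higher (0.597%, 16.8% of all). At 72 h against 24 h, 2356 were called lower (26.5%, 16.4% of all) and 119 higher (1.34%, 19.4% of all). The 3 medians of the log2 fold change were 0.37, -0.49 and -0.51, against 0.02, -0.02 and -0.01 over all tested sites. Scaled to the background floor, the calls at 24 h turned to 319 higher and 4359 lower, where 6.07% and 65.0% of all tested sites were called. Those at 48 h turned to 7 and 5838 (7.64% and 41.1% of all), and those at 72 h to 8 and 6022 (7.63% and 43.4% of all). The medians were then -0.56, -0.98 and -1.07, against -0.91, -0.51 and -0.58 over all tested sites. DESeq2 called fewer sites in every class, with 1003 higher and 329 lower at 24 h (13.7% and 14.2% of all), 7 and 328 at 48 h (8.26% and 2.45% of all), and 17 and 562 at 72 h (9.75% and 5.04% of all).

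The later listing of a site followed its level at 24 h. Sites with an untreated and a 24 h peak were split into deciles of their 24 h level. In decile 1, at a median of 8.41 CPM, 80.0% had no peak at either later time. The share was 54.2% in decile 3 (13.4 CPM), 22.9% in decile 6 (22.3 CPM), 6.79% in decile 8 (33.4 CPM) and 0.611% in decile 10 (70.2 CPM). There 17 of 2783 sites were early-listed. Total counts in all intervals were lower at those times too, 3685562 at 24 h, 2726249 after 48 h and 2338693 after 72 h over both libraries. Counts per early-listed site went from a median of 49 to 24 and 21, but the rule chose these sites for lacking later peaks. The part of sequencing depth in the later listing was not tested. When all 4 lists were cut to the length of the shortest, 1042 sites fitted the rule, of which 826 were among the 9024.

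**Figure D3:**
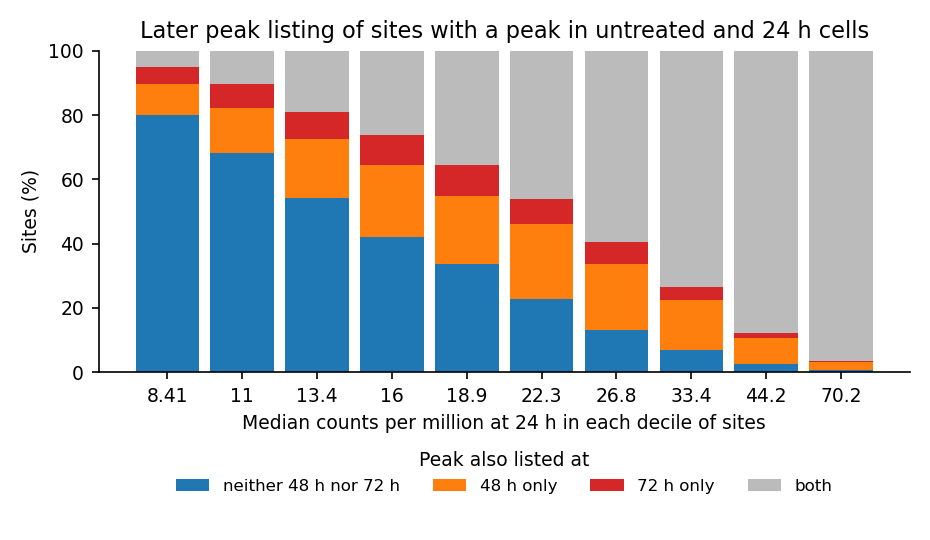
Sites with a peak in untreated and 24 h cells, in deciles of their level at 24 h (median CPM of each decile on the horizontal axis), with the share whose peak was also listed at neither later time, at 48 h only, at 72 h only or at both. The share listed at neither falls from 80.0% in the lowest decile to 0.611% in the highest.

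Among themselves the early-listed sites differed by their untreated level. The decile with the lowest untreated level had medians of 4.32 CPM untreated, 8.67 after 24 h, 5.35 after 48 h and 5.37 after 72 h, and a median log2 fold change of 1.16 after 24 h. Decile 5 had 9.41, 12.4, 9.16 and 9.39 CPM. The highest decile had 27.1 CPM untreated, 19.7 after 24 h, 17.2 after 48 h and 17.0 after 72 h, with a median of -0.56 after 24 h. The weakest sites thus peaked at 24 h and the strongest were already lower then; the need for a peak in both lists and the sort by the untreated level both shape this order.

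The strongest sites in untreated cells show the second course. The site with the most signal, in no protein-coding gene and 61287 bp from FRG2B (chr10:133688082-133688927), was an exception. It had 226 and 245 CPM untreated, 492 and 458 after 24 h, 1305 and 1224 after 48 h, and 1469 and 1318 after 72 h. Its level was thus higher at each later time, without a listed peak at 48 or 72 h. FRG2B belongs to a family with near-identical copies at other chromosome ends, and whether reads were shared among copies was not tested. A site 10589 bp from NEDD9, a scaffold protein of focal adhesions and cell migration (chr6:11392937-11393366), had 109 and 106 CPM untreated, 24.1 and 15.6 after 24 h, 17.8 and 22.7 after 48 h, and 15.6 and 15.7 after 72 h. The second NEDD9 site, 46620 bp from the gene (chr6:11428968-11429257), went from 85.7 and 84.1 CPM to 14.9 and 21.6 after 24 h and had 16.2 and 18.1 after 48 h and 17.3 and 18.5 after 72 h. Both NEDD9 sites were low from 24 h on, with no overlap between the untreated and any treated library, at a log2 fold change of -2.42 and -2.22 after 24 h. A site in VPS37B, a subunit of the ESCRT-I sorting complex (chr12:122888320-122888738), was alike, with 88.3 and 87.4 CPM untreated, 16.4 and 21.6 after 24 h, 17.8 and 25.7 after 48 h, and 27.7 and 18.5 after 72 h.

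A site 2560 bp from MIR23A (chr19:13839219-13839892) differed less between conditions, with 88.0 and 92.0 CPM untreated, 64.1 and 60.9 after 24 h, 71.1 and 73.2 after 48 h, and 64.9 and 83.3 after 72 h. A site in EVI5L (chr19:7833525-7834019) had 100.2 and 102 CPM untreated, 55.9 and 57.6 after 24 h, 55.6 and 72.5 after 48 h, and 97.8 and 82.4 after 72 h, and so was back near its untreated level at the last time. A site 25198 bp from TOMM20, a receptor of mitochondrial protein import (chr1:235083250-235084143), also came back in part, with 89.5 and 88.4 CPM untreated, 23.1 and 16.7 after 24 h, 42.5 and 31.7 after 48 h, and 54.5 and 49.1 after 72 h. Another 2 of the 10 strongest sites lay 6381 bp from PDP1 and at chr1:234963274-234963867, the latter with no protein-coding or microRNA gene end within 100 kb. They had 98.8 and 81.7 CPM pooled over the untreated libraries and 36.8 and 37.6 after 24 h.

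**Figure D4:**
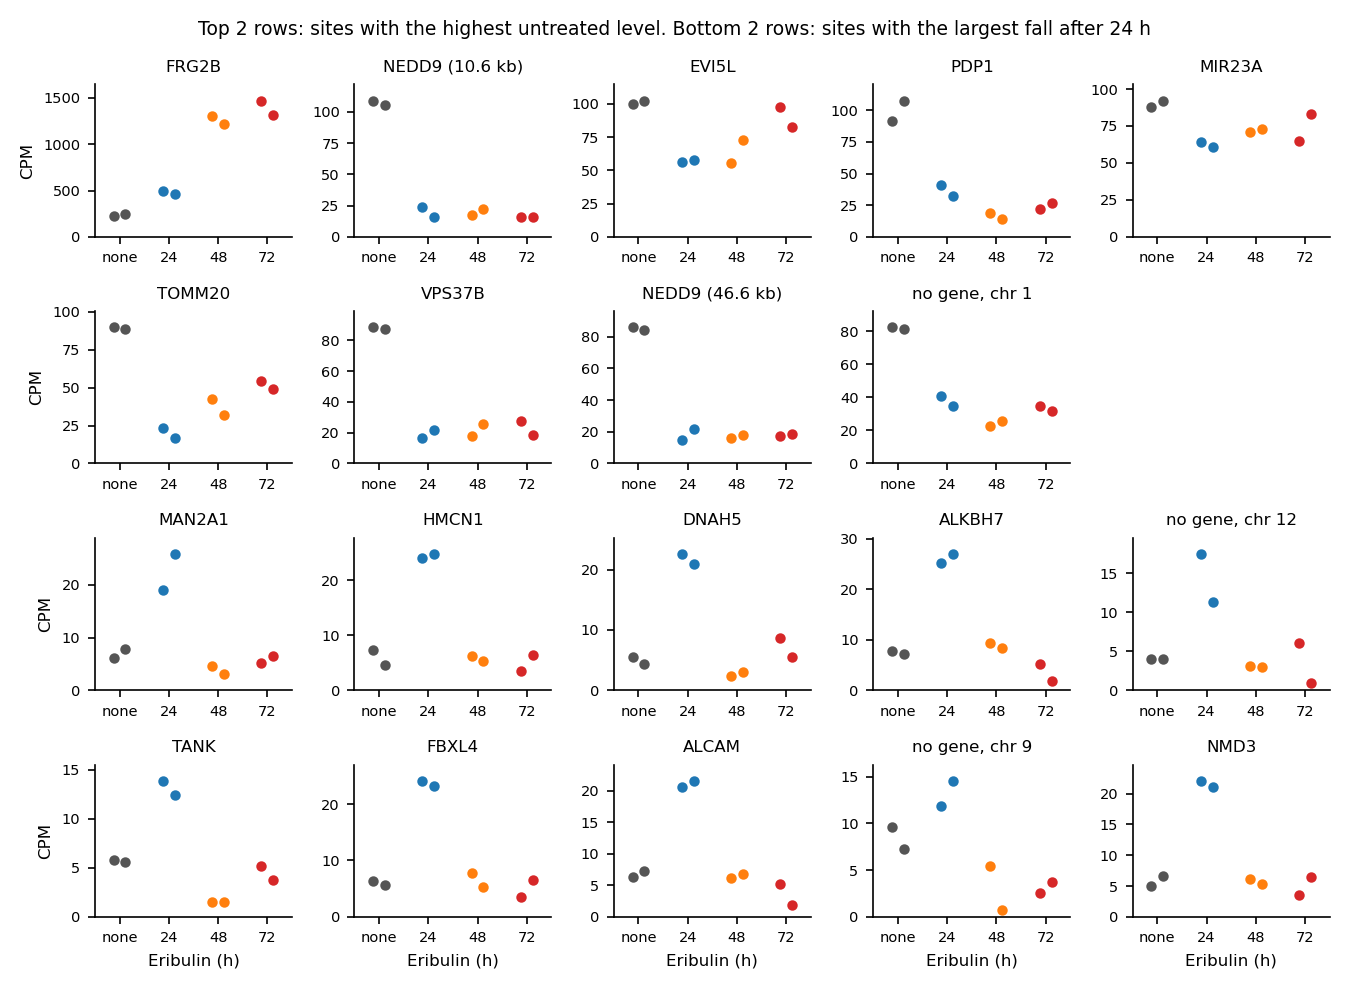
TMM-scaled CPM of early-listed sites in each of the 8 libraries (untreated marked as none, then 24, 48 and 72 h of eribulin, 2 libraries each). The upper panels hold 9 of the 10 sites with the highest untreated level, which, FRG2B apart, are lower at 24 h than untreated; the lower 10 have the largest fall after 24 h and are highest at 24 h.

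The sites with the largest fall after 24 h were ranked by their mean level at 48 and 72 h against 24 h, among the 4596 sites at or above the median 24 h level. All 10 were chosen for this fall, and all 10 were also higher at 24 h than untreated in both libraries. A site in MAN2A1, a Golgi mannosidase (chr5:109743858-109744121), had 6.08 and 7.92 CPM untreated, 19.0 and 25.9 after 24 h, 4.63 and 3.02 after 48 h, and 5.19 and 6.48 after 72 h. A site in HMCN1, an extracellular matrix protein (chr1:186082285-186082559), had 7.24 and 4.62 CPM untreated, 24.1 and 24.8 after 24 h, 6.18 and 5.29 after 48 h, and 3.46 and 6.48 after 72 h. A site 14776 bp from ALCAM, a cell adhesion molecule (chr3:105351925-105352133), had 6.37 and 7.26 CPM untreated, 20.5 and 21.6 after 24 h, 6.18 and 6.80 after 48 h, and 5.19 and 1.85 after 72 h. At each of these 3 sites the later libraries lay at about the untreated level or below it, and far from the 24 h libraries.

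The other 7 showed the same course. All 10 falls rest on small numbers of later counts, such as 10 after 48 h and 13 after 72 h at the MAN2A1 site. The ALKBH7 site (chr19:6373357-6373524) had 7.56 CPM over the untreated libraries, 26.0 after 24 h, 8.78 after 48 h and 3.58 after 72 h. That fall rests on 99 counts at 24 h and 8 after 72 h, with exact 95% binomial intervals of 21.1 to 31.7 CPM and 1.54 to 7.05 CPM, which cover counting error only. A site 98418 bp from DNAH5, an axonemal dynein chain, had 4.93, 21.8, 2.67 and 7.16 CPM in the 4 conditions. The site 57523 bp from NMD3, a nuclear export adaptor of the large ribosomal subunit, had 5.71, 21.6, 5.73 and 4.92. The site 65253 bp from FBXL4 had 6.01, 23.7, 6.49 and 4.92 CPM, and the TANK promoter shown above was the only promoter among the 10. At the other end of the ranking stood FRG2B and TOMM20 with RIPK4, STMN3 and SPACA7, and 488 of the 4596 ranked sites (10.6%) were higher after 24 h than at 24 h. The RIPK4 site, 1472 bp from the gene, had 24.7 CPM untreated, 15.0 after 24 h, 22.9 after 48 h and 30.9 after 72 h, and the site in STMN3, a stathmin that takes up tubulin, had 22.4, 13.1, 19.9 and 29.1.

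The promoter sequences, which the rule did not use, held the ZEB1 hexamer less often than those of sites in all 4 lists; the shares are given as a description, with no test. It was found in 162 of the 1669 promoter windows at early-listed sites (9.71%, either strand), against 967 of 4205 at sites in all 4 lists (23.0%), 268 of 1195 at sites in the untreated list only (22.4%), 29 of 363 at sites in the 24 h list only (7.99%) and 7231 of all 35116 windows (20.6%). The 2 nearest classes lay between: 148 of 1033 windows (14.3%) where a peak was also listed at 48 h only, and 79 of 454 (17.4%) at 72 h only. The windows with a listed peak were alike in base composition, with a median GC of 66.7% at early-listed sites, 65.3% at sites in all 4 lists, 64.7% at untreated-only sites and 67.0% after 24 h-only sites, against 58.7% in all windows. Hexamers chosen for comparison after the data had been seen were nearer to each other in the 2 classes: CCACTG, the same letters in another order, was in 18.2% of early-listed windows and 18.5% of those in all 4 lists, and the E-box CAGCTG in 15.7% and 16.1%. The GC box GGGCGG was in 71.5% and 74.0%. Each was searched on both strands of the whole window, whether or not the site covered the match. Overlaps between motifs were not removed, and a match is a description and not a bound site.

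Within the early-listed sites the share with CACCTG was lower the higher the site stood at 24 h against untreated. It was 7 of 20 windows (35.0%) where the log2 fold change was under -1, 12 of 55 (21.8%) from -1 to -0.5, 39 of 263 (14.8%) from -0.5 to 0, 57 of 522 (10.9%) from 0 to 0.5, 36 of 490 (7.35%) from 0.5 to 1 and 8 of 287 (2.79%) above 1. The sites in all 4 lists had the same order at higher shares, from 43.1% under -1 to 7.14% above 1, so the order is not particular to the early-listed sites. CCACTG was in 25%, 21.8%, 20.2%, 18.4%, 16.3% and 18.5% of the early-listed windows in the same order, a smaller difference that ran the same way over the first 5 bins. The GC box GGGCGG ran the other way, from 45% under -1 to 77% above 1. Median GC also differed between the bins, at 62.0%, 66.7%, 64.7%, 65.7%, 67.5% and 69.0% in the same order, and its part was not tested. The motif TGANTCA of AP-1, a factor of the JUN and FOS family, was in 10.0%, 16.4% and 13.3% of the windows in the 3 lower bins and in 6.13%, 6.33% and 4.53% in the 3 higher ones.

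**Figure D5:**
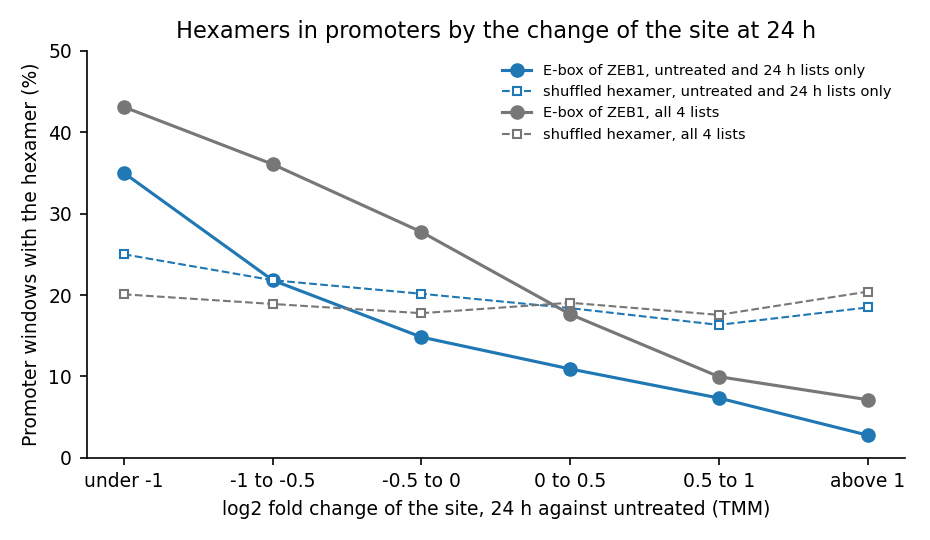
Share of promoter windows that hold the ZEB1 E-box hexamer (filled circles) or a hexamer of the same letters in another order (open squares), by the log2 fold change of the overlapping site at 24 h against untreated, for early-listed sites and sites in all 4 lists. In early-listed sites the E-box share falls from 35.0% to 2.79% and the comparison hexamer goes from 25% to 18.5%.

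Levels at the later times are also given for early-listed promoters with and without CACCTG. The 162 with it had medians of 10.5 CPM untreated, 11.6 after 24 h, 10.7 after 48 h and 11.2 after 72 h, and the 1507 without it 10.0, 14.2, 9.93 and 10.3. The median log2 fold change at 24 h was 0.20 with the hexamer and 0.49 without it, at 48 h against 24 h -0.18 and -0.50, and at 72 h against 24 h -0.08 and -0.46. Both later comparisons are against 24 h, so they carry the difference at 24 h and are no separate result. In CPM, the median with the hexamer was nearer to untreated at 24 h, and the median without it was nearer at 48 and 72 h. Among the 6 strongest early-listed promoters in untreated cells none of the windows held it: these were ATOSB, DUSP1, SEPTIN9, the RCC1 and SNHG3 start, and 2 noncoding RNAs inside LTBP2 and TMC1.

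The positions of the early-listed sites were near those of all intervals. The share within 1 kb of the end of a protein-coding gene was 22.2%, against 22.9% of all intervals and 35.8% of sites in all 4 lists, and 56.8% lay in a protein-coding gene, against 57.0% of all. The median distance to a gene end was 16473 bp, and 7773 sites were linked to 5642 protein-coding or microRNA genes with the nearest end within 100 kb. Such a link is a matter of position and says nothing about regulation. Within 5 Mb of the outermost genes of a chromosome lay 10.6% of them, against 12.4% of all.

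Calls within the gene lists that follow are counts in these libraries, to be read beside those of all 7646 tested and linked early-listed sites, of which 34.9% were called higher and 10.5% lower at 24 h, 24.1% lower and 0.641% higher at 48 h against 24 h, and 24.4% lower and 1.53% higher at 72 h. Of all tested sites, early-listed or not, 28.0% and 26.8%, 14.3% and 16.8%, and 16.4% and 19.4% were called in the same order. The lists are small, and nothing particular to a list is read from its counts. Distances from a gene are to its nearest end, so a site given with a distance may lie inside the gene.

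The list of ZEB1 cofactors and corepressors held more early-listed sites than most of the 15 gene lists, 21 of 107 linked sites (19.6%), against 16.7% of all linked sites. Of the 21, 8 were called higher (38.1%, 28.0% of all tested sites) and 2 lower (9.52%, 26.8% of all) at 24 h, 8 lower (38.1%, 14.3% of all) and 1 higher at 48 h, and 6 lower (28.6%, 16.4% of all) and 0 higher at 72 h, with medians of 0.31, -0.53 and -0.54, near those of all linked early-listed sites (0.35, -0.46 and -0.47). The example genes in this and the next paragraphs that are not the strongest site of their list were chosen after their values had been seen. A site 920 bp from the nearest end of CTBP1, the corepressor that ZEB1 recruits (chr4:1249117-1249435), had 5.79 and 2.97 CPM untreated, 16.9 and 16.2 after 24 h, 6.95 and 7.55 after 48 h, and 6.06 and 8.33 after 72 h. A site over an end of RCOR1, the CoREST subunit (chr14:102592103-102592737), had 17.1 and 19.8 CPM untreated, 44.6 and 35.6 after 24 h, 17.8 and 24.9 after 48 h, and 15.6 and 20.4 after 72 h. SMARCA4, the ATPase of SWI/SNF complexes (chr19:10960538-10961088), had 24.0 and 20.8, 39.0 and 33.4, 20.9 and 24.2, and 19.9 and 17.6 CPM in the same order. These 3 sites were high in the 24 h libraries alone. The strongest site of the list, 11313 bp from the maintenance methyltransferase DNMT1 (chr19:10206266-10206579), ran the other way, with 28.4 and 25.7 CPM untreated, 10.8 and 8.62 after 24 h, 17.8 and 20.4 after 48 h, and 11.2 and 13.9 after 72 h.

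Epithelial junction and polarity genes, the best known group that ZEB1 represses, had early-listed sites at 20 of 177 linked sites (11.3%), and epithelial regulators at 11 of 111 (9.91%). In the junction list, 7 were called lower (35%, 26.8% of all tested sites) and 4 higher (20%, 28.0% of all) at 24 h, 2 lower (10%, 14.3% of all) and 0 higher at 48 h, and 2 lower (10%, 16.4% of all) and 3 higher (15%, 19.4% of all) at 72 h, with medians of -0.27, -0.18 and -0.10. The strongest, in the polarity gene PARD6B (chr20:50742047-50742199), had 37.1 and 32.0 CPM untreated, 12.3 and 11.3 after 24 h, 16.2 and 21.1 after 48 h, and 17.3 and 24.99 after 72 h. A site 42277 bp from the nearest end of CDH1, the adherens junction cadherin (chr16:68793101-68793260), had 15.3 and 11.2 CPM untreated, 7.70 and 7.004 after 24 h, 3.09 and 6.80 after 48 h, and 4.33 and 3.70 after 72 h. Every treated library lay below both untreated ones. A site 2001 bp from MIR200B (chr1:1164734-1165103) had 13.3 and 11.9 CPM untreated, 12.3 and 13.5 after 24 h, 18.5 and 15.1 after 48 h, and 18.2 and 20.4 after 72 h, and was highest in the libraries where no peak was listed. A site 47363 bp from ELF3, an epithelial ETS factor (chr1:202064546-202064910) had 28.7 and 30.3 CPM untreated, 9.75 and 9.16 after 24 h, 17.0 and 18.1 after 48 h, and 12.1 and 19.4 after 72 h.

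The transcription factors of the epithelial to mesenchymal transition had 13 early-listed sites among 143 linked ones (9.09%). At 24 h 4 were called higher (30.8%, 28.0% of all tested sites) and 2 lower (15.4%, 26.8% of all), at 48 h 0 higher and 3 lower (23.1%, 14.3% of all), and at 72 h 0 higher and 2 lower (15.4%, 16.4% of all). A site 24777 bp from ZEB1 itself (chr10:31554581-31554845) had 15.1 and 16.5 CPM untreated, 7.18 and 9.16 after 24 h, 11.6 and 6.80 after 48 h, and 6.06 and 9.26 after 72 h. A site 13926 bp from SNAI1, the SNAIL repressor (chr20:49968868-49969054), had 9.85 and 13.2 CPM untreated, 23.1 and 22.1 after 24 h, 13.9 and 16.6 after 48 h, and 17.3 and 20.4 after 72 h. RUNX2, a factor of the bone lineage, had a site 89 bp from its gene end (chr6:45328069-45328241) with 9.85 and 11.2 CPM untreated, 13.3 and 12.4 after 24 h, 6.18 and 3.02 after 48 h, and 1.73 and 2.78 after 72 h, and at that site the later libraries lay below all earlier ones.

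Mesenchymal effectors had 29 early-listed sites among 200 linked ones (14.5%), with 7 called higher (24.1%, 28.0% of all tested sites) and 6 lower (20.7%, 26.8% of all) at 24 h. At 48 h 3 were lower (10.3%, 14.3% of all) and 0 higher, and at 72 h 6 lower (20.7%, 16.4% of all) and 0 higher. A site 10476 bp from CDH2, the N-cadherin of mesenchymal cells (chr18:27922045-27922403), had 16.2 and 14.2 CPM untreated, 24.6 and 21.6 after 24 h, 10.8 and 12.1 after 48 h, and 13.8 and 12.03 after 72 h. A site 12289 bp from SPARC, a matrix glycoprotein (chr5:151699204-151699429), had 6.37 and 5.94 CPM untreated, 13.9 and 11.3 after 24 h, 3.86 and 2.27 after 48 h, and 6.92 and 3.70 after 72 h. Both were highest at 24 h in both libraries. The strongest of the list, 17200 bp from the collagen gene COL1A1, was not: it had 29.5 CPM untreated, 15.5 after 24 h, 13.7 after 48 h and 13.4 after 72 h.

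The TGF-beta list had 30 early-listed sites among 189 (15.9%), with 7 called higher and 7 lower at 24 h (23.3% each, against 28.0% and 26.8% of all tested sites). At each later time against 24 h, 7 were lower (23.3%, against 14.3% of all at 48 h and 16.4% at 72 h) and 0 higher. The ligand TGFB2, the receptors TGFBR1 and TGFBR3 and the SMAD family genes SMAD1, SMAD2, SMAD3, SMAD4 and SMAD6 each had at least 1. A site 27547 bp from TGFBR1 (chr9:99181739-99181919) had 4.34 and 8.24 CPM untreated, 13.3 and 15.1 after 24 h, 5.41 and 4.53 after 48 h, and 4.33 and 5.55 after 72 h. The 3 sites near ID3, an inhibitor of basic helix-loop-helix factors, had 21.9, 20.2 and 19.6 CPM untreated and 11.3, 11.3 and 15.8 after 24 h, and none was higher than untreated at a later time.

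YAP, TEAD and AP-1 genes had 34 early-listed sites among 230 (14.8%), with 10 called higher (29.4%, 28.0% of all tested sites) and 6 lower (17.6%, 26.8% of all) at 24 h. At 48 h 6 were lower (17.6%, 14.3% of all) and 0 higher, and at 72 h 10 lower (29.4%, 16.4% of all) and 1 higher. A site 1597 bp from the nearest end of YAP1, the Hippo pathway coactivator (chr11:102112044-102112249), had 8.98 and 6.93 CPM untreated, 19.5 and 19.4 after 24 h, 10.0 and 5.29 after 48 h, and 7.79 and 7.40 after 72 h. A site over the gene end of NT5E, the ectonucleotidase CD73 (chr6:85449557-85450265), had 6.08 and 6.27 CPM untreated, 20.01 and 24.2 after 24 h, 13.9 and 19.6 after 48 h, and 10.4 and 8.33 after 72 h. The site 145 bp from ANKRD1, a YAP target (chr10:90911693-90911951), was the 1 called higher at 72 h, with 16.2 and 25.7 CPM untreated, 8.72 and 10.2 after 24 h, 10.0 and 16.6 after 48 h, and 15.6 and 27.8 after 72 h.

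Immediate early and MAP kinase feedback genes had 29 of 183 (15.8%), with 13 called higher (44.8%, 28.0% of all tested sites) and 4 lower (13.8%, 26.8% of all) at 24 h. At 48 h 11 were lower (37.9%, 14.3% of all) and 0 higher, and at 72 h 8 lower (27.6%, 16.4% of all) and 1 higher. The feedback inhibitors SPRY2 and SPRED2 were in the first set: SPRY2, 91 bp from its gene end (chr13:80341217-80341542), had 6.95 and 7.26 CPM untreated, 18.0 and 18.3 after 24 h, 7.72 and 8.31 after 48 h, and 6.92 and 9.26 after 72 h. Over the end of SPRED2 (chr2:65432518-65432776) the values were 12.2 and 16.5, 24.1 and 21.6, 12.4 and 8.31, and 7.79 and 7.40 CPM. In the list of survival and drug response genes, 14 of 98 linked sites were early-listed (14.3%). There EGFR, the receptor kinase, had a site 33158 bp from its nearest end (chr7:55052175-55052385) with 6.08 and 5.28 CPM untreated, 31.3 and 25.9 after 24 h, 13.9 and 13.6 after 48 h, and 16.4 and 22.2 after 72 h. Its ligand AREG had a site 46629 bp away (chr4:74501634-74501834) with 10.4 and 11.5 CPM untreated, 34.4 and 31.2 after 24 h, 11.6 and 15.1 after 48 h, and 14.7 and 11.1 after 72 h. The antiapoptotic BCL2L1 and MCL1 ran the other way, with 79.0 and 46.7 CPM untreated, 36.8 and 22.6 after 24 h, 33.2 and 25.6 after 48 h, and 47.0 and 29.1 after 72 h at their strongest sites.

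Tubulin, microtubule and mitosis genes, which include the target of eribulin, had 20 early-listed sites among 108 (18.5%). At 24 h 7 were called higher (35%, 28.0% of all tested sites) and 1 lower (5%, 26.8% of all), at 48 h 5 lower (25%, 14.3% of all) and 0 higher, and at 72 h 4 lower (20%, 16.4% of all) and 0 higher. The site 41 bp from CLASP1, which binds the plus ends of microtubules (chr2:121649503-121649790), had 10.4 and 13.9 CPM untreated, 27.7 and 38.3 after 24 h, 14.7 and 15.1 after 48 h, and 9.52 and 13.9 after 72 h. The site at the end of TUBB3, the neuronal beta tubulin (chr16:89921767-89921964), had 14.5 and 16.5 CPM untreated, 13.3 and 17.2 after 24 h, 7.72 and 7.55 after 48 h, and 16.4 and 10.2 after 72 h, and was low at 48 h alone. The other 5 lists held 5 to 22 early-listed sites each. Interferon, cytokine and chemokine genes had the highest share of the 15 over linked sites, 22 of 106 (20.8%). Over linked sites with both an untreated and a 24 h peak the order differed: ZEB1 cofactors had 40.4%, tubulin and mitosis genes 34.5% and interferon genes 34.4%, and the lowest shares were 18.6% for the transition factors and 19.2% for housekeeping genes. In the interferon list, the site 151 bp from CXCL2, a chemokine (chr4:74096350-74096889), had 45.2 and 47.2 CPM untreated, 34.4 and 31.2 after 24 h, 10.0 and 9.06 after 48 h, and 29.4 and 16.7 after 72 h. Over all linked sites, housekeeping genes had 5 of 56 (8.93%), the lowest share, and lineage genes of other cell types 9 of 67 (13.4%).

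Early-listed sites lay over 10 microRNA hairpins of the RefSeq table, with 13 mature arms and 13 different seeds. The mature arms of MIR1199 (hairpin at chr19:14073361-14073479, plus strand) and MIR132 (hairpin at chr17:2049908-2050008, minus strand) are shown with the seed, bases 2 to 8, in capitals, the first because miR-1199-5p is known to target ZEB1 and the second because its site was the only 1 of the 10, beside that of MIR5787, lower at 24 h than untreated in pooled CPM.
hsa-miR-1199-5p: cCUGAGCCcgggccgcgcag
hsa-miR-1199-3p: uGCGGCCGgugcucaaccugc
hsa-miR-132-3p: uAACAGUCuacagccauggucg
hsa-miR-132-5p: aCCGUGGCuuucgauuguuacu

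The MIR1199 site (chr19:14073383-14074036) had 16.8 and 20.1 CPM untreated, 28.2 and 22.6 after 24 h, 18.5 and 14.3 after 48 h, and 17.3 and 10.2 after 72 h. Both 24 h libraries lay above all others. The MIR132 site (chr17:2049715-2050118) had 12.5 and 15.5 CPM untreated, 9.24 and 11.3 after 24 h, 6.18 and 10.6 after 48 h, and 8.65 and 14.8 after 72 h, and its 72 h libraries spread over the range of the others.

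The rule cuts through a range of peaks. The weakest early-listed site by the q value of its peaks, 176 bp from the end of SLC35D2 (chr9:96383240-96383535), had a 24 h peak with a -log10 q of 1.32, and levels of 2.78 CPM untreated, 4.47 after 24 h, 4.58 after 48 h and 5.81 after 72 h. The next weakest, at chr21:5603590-5604146 and 911 bp from CREG2, had -log10 q values of 1.36 after 24 h for the first and 1.37 in untreated cells for the second. Just outside the rule, a site 30 bp from FRAT2 (chr10:97334759-97335061) had a peak at 48 h with a -log10 q of 1.31 and levels of 5.86, 9.20, 7.64 and 4.92 CPM. A site 10710 bp from SOWAHB was left out by a 72 h peak at 1.33. The q values are the authors' and belong to the whole peak of replicate 1 from which an entry was cut.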

How the data were processed

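ZEB1 CUT&RUN was done in 8 libraries, 2 for each of 4 conditions. The deposited table gives the authors' raw counts per consensus interval, and the submitters' processing notes name featureCounts, Bowtie2 2.2.6, cutadapt 2.4, Picard, MACS2 2.1.1, bedtools 2.30.0, deepTools and hg38 with no role or order; reads or fragments as the unit counted is not given in the sources used here. The labels also mention Tn5, which is not a CUT&RUN step. The 4 deposited peak lists give the authors' fold over background (a ratio), the −log10 p and −log10 q, and a score that is 10 times the −log10 q; per the file headers and peak names, entries are stretches of replicate 1 peaks.

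Early-listed sites were found by overlap of at least 1 bp. Counts were fitted with edgeR 4.0.16 in R 4.3.3 (TMM, its default filter on low counts, quasi-likelihood test over 4 conditions, Benjamini-Hochberg adjusted p under 0.05). The procedure was also run on simulated counts with sampling noise only, which cannot show how it behaves with a spread between cultures. Since the libraries of a condition agree within sampling noise and nothing says that they are separate cultures, p-values measure only the spread between libraries, and none is printed. DESeq2 1.42.0, RLE scaling, a BCV of 0.2, no filter, a replicate block, leaving out each library, stricter or equal-length lists and scaling to the background floor were the alternatives.

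Named sites were the 10 highest in untreated cells, the 10 with the largest and 5 with the smallest fall after 24 h (prior of 0.5 CPM), the strongest linked site of each of 15 gene lists, the 5 genes with most sites, the 6 strongest promoters and 3 sites on each side of the threshold. The sites, lists and tests were chosen with earlier results of these data known. Genes were linked by the nearest end within 100 kb in RefSeq GRCh38.p14, and 377 of 377 list symbols matched. The distance to that end was taken alike for sites inside and outside the gene. Sites on chromosome Y are not named. Of the sites these rules name, 2 are not reported here.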

Additional observations from a re-analysis of the deposited data

How the results depend on the processing

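Scaled to the background floor, the median log2 fold change of the early-listed sites at 24 h against untreated was reversed, at -0.56, and those at 48 and 72 h against 24 h were -0.98 and -1.07; calls were 4359 lower and 319 higher at 24 h, 5838 and 7 after 48 h, and 6022 and 8 after 72 h. DESeq2 called 329 lower and 1003 higher, 328 and 7, and 562 and 17, with a median of -0.52 after 72 h. With an assumed BCV of 0.2 edgeR called 342 and 1558, 625 and 6, and 864 and 16. RLE scaling gave medians of 0.36 after 24 h and -0.52 after 72 h, and no filter on low counts -0.47 after 48 h and -0.50 after 72 h. The cause of these differences was not tested.

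Leaving out 1 library at a time gave 630 to 939 sites lower and 2206 to 3142 higher at 24 h, 1071 to 2073 lower and 25 to 61 higher at 48 h, and 1158 to 2239 lower and 46 to 131 higher at 72 h. The medians ran from 0.34 to 0.37, -0.51 to -0.46 and -0.52 to -0.48. The lower count at 48 h moved by over 1.5 times without 24 h replicate 2 (1422), 48 h replicate 1 (1208) or 48 h replicate 2 (1071), and that at 72 h without 72 h replicate 1 (1158) or 2 (1281). The higher count moved so at 48 h without 24 h replicate 1 (25) or 2 (31), and at 72 h without 24 h replicate 1 (46) or 72 h replicate 1 (61). An arm left with 1 library was assumed to vary like the others.

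The replicate numbers do not pair the libraries: deviations of same-numbered libraries correlated at -0.0046 to 0.0139 between conditions. With the replicate number as a block, 914 sites were lower and 3202 higher at 24 h, 2265 and 54 after 48 h, and 2354 and 119 after 72 h, with medians of 0.37, -0.50 and -0.51. Of 560 alternative values for 40 log2 values of named sites, 549 kept their direction and side of the threshold, 11 no longer passed it and 0 reversed. The 40 belong only to the sites highest in untreated cells and those with the largest and smallest fall. These were chosen for extreme values on the same counts, so a reversal was unlikely from the start and nothing is concluded from its absence. With peaks at a q of 0.01 or less 9074 sites fitted the rule, with 50% of the interval covered 10779, and with lists of equal length 1042. The median count per early-listed site was 24 at 48 h and 21 at 72 h, and its part in the number of calls was not tested.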

Other observations

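The X chromosome held the largest share of early-listed sites among the autosomes and X, 281 of its 1205 intervals (23.3%), and 281 of 623 intervals with both an untreated and a 24 h peak (45.1%). Its sites had medians of 9.25 CPM untreated, 12.6 after 24 h, 8.02 after 48 h and 8.05 after 72 h. Chromosome 18 followed with 20.9% and chromosome 13 with 20.1%, while chromosome 21 had 12.7% and chromosome 19 had 13.8%. Chromosome 13 also had the highest median log2 fold change at 24 h among them, 0.61, against 0.19 on chromosome 19.

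The gene with the most early-listed sites was ADAMTS16, a secreted metalloprotease, with 8 of its 16 linked sites. They had medians of 11.3 CPM untreated, 16.8 after 24 h, 10.9 after 48 h and 10.96 after 72 h. NBPF8, of a gene family with many near-identical copies, had 7 of 12, and whether reads were shared among the copies was not tested. BMPER, a secreted regulator of BMP signalling, had 7 of 25, with its strongest site at 44.6 and 37.3 CPM untreated, 22.1 and 21.0 after 24 h, 7.72 and 12.1 after 48 h, and 13.0 and 10.2 after 72 h. STMND1 had 6 of 8 and NEBL, a nebulin-related actin-binding protein, 6 of 11.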
